A study of Mus musculus with 6 samples.

Results

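The 9 miRNAs described here are markers of epithelial and kidney identity: the 5 of the miR-200 family (mmu-miR-200a-3p, mmu-miR-200b-3p, mmu-miR-200c-3p, mmu-miR-141-3p and mmu-miR-429-3p) and 4 that are abundant in kidney (mmu-miR-192-5p, mmu-miR-194-5p, mmu-miR-215-5p and mmu-miR-204-5p). They were taken by exact mature name from the 1247 mouse miRNAs on the array, and all 9 had probes. None of the 9 was detected on any of the 6 arrays, which also held for 1049 of the 1247 miRNAs. The closest of the 9 to detection was miR-192-5p, whose signal stood above the mean of the negative-control spots on all 6 arrays. Its brightest probe reached 57.3% of the lowest mean of a detected probe at most.

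The RNA came from mProx24, a proximal tubular cell line of mouse kidney (strain C57B6), and 1 Agilent single-colour miRNA array was hybridised per condition with labelled product of 100 ng of total RNA. All cultures were grown in Dulbecco's modified Eagle's medium with fetal calf serum. The high glucose culture was kept at 20% oxygen, and no source used here gives its glucose concentration. The palmitate culture, titled High FFAs, received 150 µM palmitate bound to 0.15% bovine serum albumin for 9 h at 20% oxygen. The hypoxia culture was held at 1% oxygen for 12 h. The triple stimuli culture received high glucose, 1% oxygen and palmitate together, and the rapamycin culture received the same 3 stimuli after 12 h with 0.4 µg/ml rapamycin, which inhibits the mTORC1 kinase. The control culture was kept at 20% oxygen. The labels mark the high glucose, hypoxia and control cultures with PBS and give albumin only with palmitate, so palmitate and its albumin carrier cannot be told apart. The study is a comparison of this cell line under diabetes-like conditions with its control, and with 1 array per condition no difference between conditions has a replicate check, so no p-value is given.

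The miR-200 family holds cells in an epithelial state by repressing the transcription factors Zeb1 and Zeb2, which shut down E-cadherin, and loss of the family accompanies epithelial-to-mesenchymal transition. miR-192 and miR-194 are produced from shared primary transcripts that depend on hepatocyte nuclear factors and are abundant in kidney, liver and gut. miR-192 has been studied in diabetic kidney disease downstream of TGF-beta. miR-204, encoded in an intron of Trpm3, is abundant in kidney tubules and in the retinal pigment epithelium.

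By their seeds, the bases that lead target recognition, the 9 miRNAs fall into 5 groups. The mature sequences are given 5′ to 3′ from RefSeq (GRCm38.p6), with the seed, bases 2 to 8, in capitals. The pair miR-200a-3p and miR-141-3p shares 1 seed:
mmu-miR-200a-3p: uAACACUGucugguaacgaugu
mmu-miR-141-3p: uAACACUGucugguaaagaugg
The other 3 miRNAs of the family share a seed that differs from it by 1 base:
mmu-miR-200b-3p: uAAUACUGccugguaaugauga
mmu-miR-200c-3p: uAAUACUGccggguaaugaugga
mmu-miR-429-3p: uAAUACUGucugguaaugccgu
miR-192-5p and miR-215-5p share a seed:
mmu-miR-192-5p: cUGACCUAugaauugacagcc
mmu-miR-215-5p: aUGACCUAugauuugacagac
miR-194-5p and miR-204-5p each have a seed of their own among the 9:
mmu-miR-194-5p: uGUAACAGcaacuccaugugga
mmu-miR-204-5p: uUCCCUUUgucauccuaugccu

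Relative miRNAs differ by few bases, counted from 1 at the 5′ end. miR-141-3p differs from miR-200a-3p by C17A and U22G, and miR-200c-3p differs from miR-200b-3p by U11G and A22G over their first 22 bases. miR-429-3p differs from miR-200b-3p by C9U, A19C, U20C and A22U. miR-215-5p differs from miR-192-5p by C1A, A12U and C20A. Among the 1017 of 1247 array names with a RefSeq mature sequence, the only other miRNA with a seed of these 9 was miR-211-5p, which differs from miR-204-5p by A17U.

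The genes lie in small clusters. On chromosome 4, minus strand, the mature sequences are at chr4:156054911-156054932 (miR-200a-3p), chr4:156055685-156055706 (miR-200b-3p) and chr4:156053916-156053937 (miR-429-3p), with 695 bases between the hairpins of Mir200a and Mir200b and 908 between those of Mir429 and Mir200a, within the span of the lncRNA gene Gm13648. miR-200c-3p (chr6:124718324-124718346) and miR-141-3p (chr6:124717917-124717938) are on the minus strand of chromosome 6 with 336 bases between their hairpins. miR-192-5p (chr19:6264857-6264877) has Mir194-2 (mature miR-194-5p at chr19:6264658-6264679) beside it, with 115 bases between the hairpins on the plus strand. The other copy, Mir194-1 (mature miR-194-5p at chr1:185313325-185313346), lies 195 bases from the hairpin of Mir215 (mature miR-215-5p at chr1:185313610-185313630), both within the span of Iars2. miR-204-5p (chr19:22750610-22750631) is within the span of Trpm3. The array measures mature miR-194-5p without telling its 2 genes apart.

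Each of the 9 miRNAs had 2 probes of 15 to 20 bases, each spotted 20 times on an array. A spot's processed intensity is the software's background-subtracted signal on a linear scale, which can fall below 0. A probe was called detected where at least 0.5 of its spots not flagged as outliers carried the software's flag for well above background. A miRNA counted as detected through either probe. By this rule, 0 of the 9 were detected under high glucose, palmitate, hypoxia, triple stimuli, triple stimuli with rapamycin or in control, beside 15.2%, 13.0%, 13.8%, 14.7%, 15.5% and 13.2% of all 1247 miRNAs on those arrays in the same order. The software's own call per miRNA also gave 0 of the 9 on each array, beside 18.3%, 16.5%, 17.4%, 17.8%, 18.1% and 17.2% of all miRNAs. In RNA from a whole culture, few cells with a miRNA and little of it in every cell cannot be told apart. Over all arrays, 1049 of the 1247 miRNAs were detected nowhere, and the 9 are among them, while 198 were detected on at least 1 array and 154 on all 6.

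Not 1 of the 9 miRNAs' spots that passed the outlier filter was well above background, out of 2160 spots of which 100 were flagged as outliers. A single flagged spot was, a spot of miR-429-3p on the rapamycin array at 27.6 intensity units. In the deposited table of processed values, all 9 stood at the floor value of every column, as did 81.7% to 83.5% of the 1247 miRNAs. The 1019 to 1041 miRNAs at the floor of a column equal in number those the software did not call, with high glucose and palmitate exchanged. The floor thus restates that call and is not a further observation. That table's column for high glucose matched the palmitate scanner file for 70.9% of the miRNAs compared and the high glucose file for 1.46%, within 0.1%, and its palmitate column matched the high glucose file for 70.6% and the palmitate file for 1.32%. The 2 labels therefore disagree between the deposited files, and the arrays are named here by the sample the scanner file belongs to. Exchanging the labels moves no count of detected miRNAs among the 9 by the rule above or the software's call, since it is 0 on both arrays. The exchange would swap all values given below for high glucose and palmitate, and the counts under the more lenient flag described later.

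Background itself set a narrow scale. The 982 to 988 negative-control spots of an array, from 7 control probes, averaged 4.14 ± 4.95 intensity units under high glucose, 3.88 ± 4.67 under palmitate, 4.16 ± 4.72 under hypoxia, 4.20 ± 4.65 under triple stimuli, 4.29 ± 4.48 with rapamycin and 4.03 ± 4.77 in control (SD over spots of 1 array). None of these spots was well above background. The lowest mean of a detected probe, used here as the detection limit, was 22.0, 21.8, 22.0, 22.2, 19.5 and 19.8 on the arrays in that order. Intensities of different probes are not amounts on 1 scale, so values below are read against each array's own background and limit, and not as one miRNA being more abundant than another. Spots of a probe share 1 RNA and are not replicates of a condition.

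**Figure D1:**
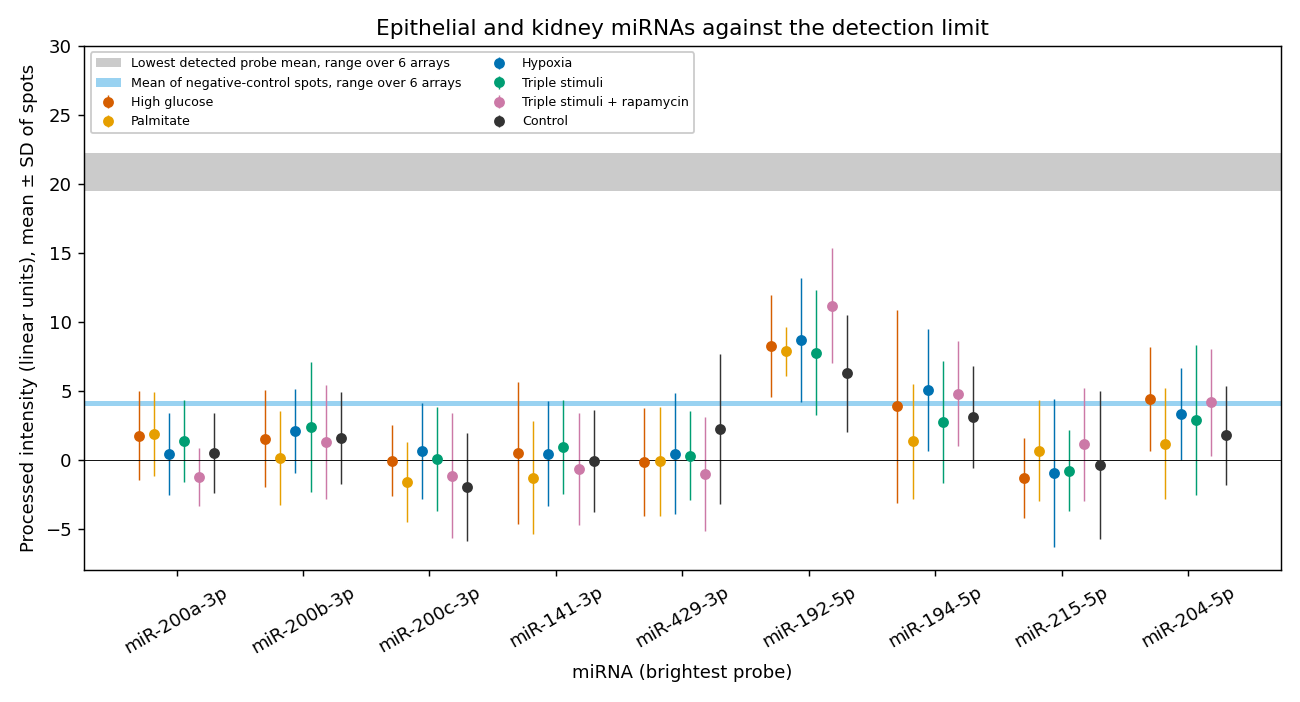
Processed intensity (linear units) of the 9 miRNAs on the 6 arrays, for the probe with the higher mean over the arrays. Points are means and bars SDs over the spots of 1 array, and the bands give the range over the 6 arrays of the negative-control mean (blue) and of the lowest detected probe mean (grey). miR-192-5p lies between 6.27 and 11.2, and every point is under the lowest detected probe mean of its array.

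miR-192-5p, the miRNA of the set most studied in diabetic kidney, had mean intensities of 8.25 under high glucose, 7.87 under palmitate, 8.69 under hypoxia, 7.78 under triple stimuli, 11.2 with rapamycin and 6.27 in control on its 19-base probe. These are means of 17 to 20 spots with SDs of 1.75 to 4.55. The mean exceeded the negative-control mean on 6 of 6 arrays, by 0.832, 0.853, 0.961, 0.771, 1.53 and 0.470 SDs of the negative-control spots. It also exceeded the highest mean of any single negative-control probe on every array, which ran from 5.35 to 5.96. It reached 37.6%, 36.0%, 39.6%, 35.0%, 57.3% and 31.6% of the detection limit. The mean of this probe was thus above the mean of the negative controls on each array while remaining 8.30 to 14.4 intensity units under the limit. It was above 68.3% (control) to 93.8% (rapamycin) of the single negative-control spots of its array.

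The second probe of miR-192-5p, of 18 bases, had means of 6.28, 5.83, 4.93, 6.81, 7.89 and 5.21 in the same order of arrays, also above the negative-control mean on each. They exceeded the highest mean of a negative-control probe on 4 arrays, and not under hypoxia or in control. Both probes were highest on the rapamycin array. On the 19-base probe, single spots ran from 4.16 to 18.7 with rapamycin and from -1.07 to 11.5 in control, so the spots of both arrays overlap. No fold is given between arrays on which the miRNA is below the limit. The probe's mean was above that of 91.7% to 94.5% of the miRNAs that no array detected.

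miR-192-5p and miR-215-5p share a seed, and their probes differ at 2 of the 3 positions that distinguish them, drawn in capitals here:
miR-192-5p, 19-base probe: gGctgtcaaTtcataggtc
miR-192-5p, 18-base probe: gGctgtcaaTtcataggt
miR-215-5p, 18-base probe: gTctgtcaaAtcataggt
miR-215-5p, 17-base probe: gTctgtcaaAtcatagg
The third position, base 1, is paired by none of them. miR-215-5p had means of -1.29 under high glucose, 0.661 under palmitate, -0.945 under hypoxia, -0.762 under triple stimuli, 1.14 with rapamycin and -0.366 in control. It was below the negative-control mean on all 6 arrays and below 0 on 4, and reached 5.88% of the limit at most. Both probes of miR-192-5p were above the negative-control mean on every array, and neither probe of its seed-mate was on any.

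miR-194-5p, which shares a cluster with each of those 2 miRNAs, had means of 3.89 under high glucose, 1.35 under palmitate, 5.05 under hypoxia, 2.73 under triple stimuli, 4.80 with rapamycin and 3.12 in control. It was above the negative-control mean on 2 arrays, hypoxia and rapamycin, and between 6.20% and 24.6% of the limit. Single spots of this probe overlapped between every pair of arrays, running from -7.76 to 18.1 over all 6. Its second probe had means of 2.40, 2.67, 1.49, 1.25, 1.44 and -0.22 in the same order, below the negative-control mean on each.

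miR-204-5p had means of 4.42 under high glucose, 1.19 under palmitate, 3.31 under hypoxia, 2.92 under triple stimuli, 4.19 with rapamycin and 1.78 in control. Only the high glucose mean exceeded that array's negative-control mean, and the share of the limit ran from 5.44% to 21.5%. Its second probe stayed between -0.593 and 1.58. Over the 4 kidney miRNAs together, 9 of 24 means were above the negative-control mean, of which 6 were those of miR-192-5p. The mean of miR-194-5p was above that of 73.3% to 89.3% of the miRNAs that no array detected, depending on the array. For miR-204-5p this was 71.1% to 86.2%, and for miR-215-5p 18.4% to 66.5%.

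None of the 5 miR-200 family miRNAs reached the negative-control mean on any array. Of their 30 means over the 6 arrays, 0 were above the negative-control mean and 11 were below 0, with a median of 0.442 and a highest value of 2.38. The highest share of the limit was 11.3%, for miR-429-3p in control. With both probes of each counted, 32 of 60 means were below 0, and again 0 were above the negative-control mean. A mean below 0 says only that the spot signal was under the background the software subtracted. Over the 1049 miRNAs that no array detected, the median of the brightest probe's mean was -0.101 (palmitate) to 0.473 (hypoxia). The negative-control mean was above that median on all 6 arrays, so a place below it is not particular to this family.

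miR-200a-3p had means of 1.76 under high glucose, 1.90 under palmitate, 0.438 under hypoxia, 1.36 under triple stimuli, -1.22 with rapamycin and 0.540 in control. miR-200b-3p, from the same cluster, had 1.53, 0.144, 2.12, 2.38, 1.30 and 1.61 in that order. miR-429-3p, the third of the cluster, had -0.138, -0.0838, 0.470, 0.318, -0.995 and 2.24. All of these means were below the negative-control mean of their array, so they give no order of the arrays.

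miR-200c-3p had means of -0.0453 under high glucose, -1.61 under palmitate, 0.643 under hypoxia, 0.0511 under triple stimuli, -1.16 with rapamycin and -1.97 in control. miR-141-3p, its neighbour on chromosome 6, had 0.525, -1.28, 0.446, 0.912, -0.642 and -0.0682 in that order. Spot SDs of the 5 miRNAs on these probes ran from 2.10 to 5.43, and for each miRNA the spots overlapped between every pair of arrays. No condition brought any of the 5 above its array's negative-control mean.

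**Figure D2:**
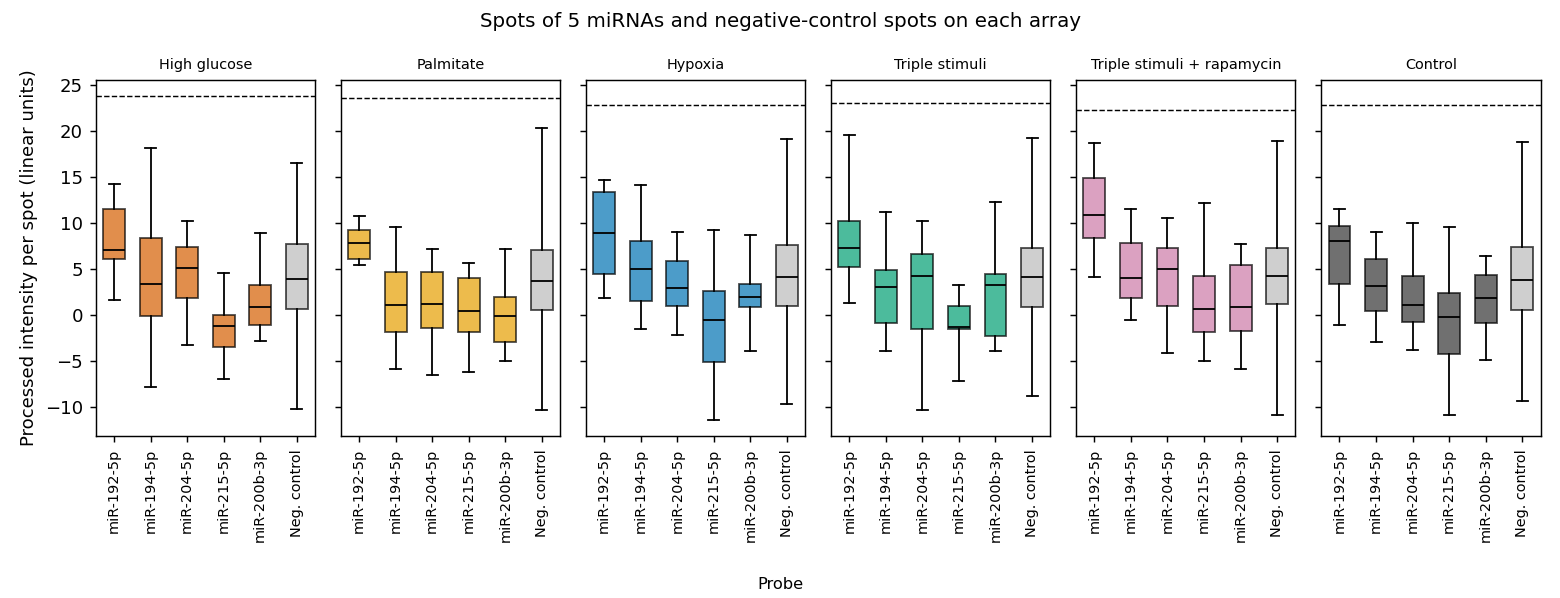
Processed intensity of single spots (linear units) on each array for probes of miR-192-5p, miR-194-5p, miR-204-5p, miR-215-5p and miR-200b-3p, beside the negative-control spots. Boxes give quartiles, the inner line the median and whiskers the lowest and highest spot, and the dashed line is the lowest spot on the array flagged well above background (22.3 to 23.8). No unflagged spot of the 9 miRNAs is above that line.

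The software also gives a total signal for each probe, and for a miRNA over its probes, each with an error. The total is on another scale and is not the sum of the spot intensities. For miR-192-5p under high glucose it was 4.11 over both probes, beside a mean spot intensity of 8.25 on the 19-base probe. The software's calls on all 7482 pairs of a miRNA and an array equalled 1 rule, that the best probe's total signal exceed 3 times its error. For miR-192-5p the best probe's ratio was 1.71 under high glucose, 1.65 under palmitate, 1.87 under hypoxia, 1.66 under triple stimuli, 2.42 with rapamycin and 1.36 in control. It came nearest to the threshold with rapamycin and did not pass it on any array. Its total signal over both probes was 4.11 ± 1.93, 3.87 ± 1.91, 3.85 ± 1.85, 4.13 ± 1.87, 5.39 ± 1.83 and 3.25 ± 1.84 (the software's error) in the same order. Its ratio of total to error placed it between rank 20 and rank 48 among the 1019 to 1041 miRNAs not called on an array. That total was 103.8% to 231.9% of the lowest total of a called miRNA, above it on all 6 arrays, although miR-192-5p itself was not called. The calls go by single probes, and the reason for this difference was not tested.

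The best probe's ratio was 0.564 to 1.10 for miR-194-5p and 0.251 to 0.932 for miR-204-5p. The total signals of both miRNAs were above 0 on all 6 arrays. For miR-215-5p it was -0.226 to 0.256. In the miR-200 family it ran from -0.341 for miR-200c-3p to 0.516 for miR-200b-3p. None of these came within 1 error of its threshold of 3.

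**Figure D3:**
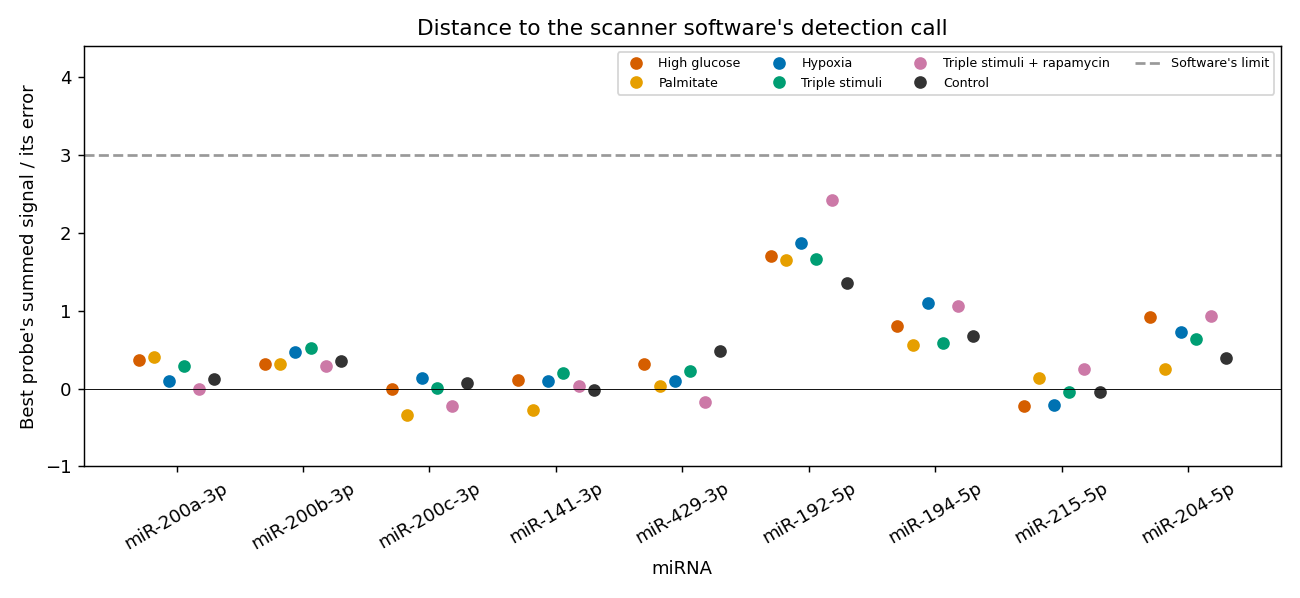
Total signal of the best probe (named summed signal on the axis) divided by its error, for the 9 miRNAs on the 6 arrays. Both are as the scanner software gives them, and the threshold of 3 is drawn as a line. miR-192-5p lies between 1.36 and 2.42, and all 54 points are under the threshold.

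A more lenient flag, for spots positive and significantly above background, was carried by at least 0.5 of the spots of 2 of the 9 miRNAs under high glucose, 1 under palmitate, 2 under hypoxia, 2 under triple stimuli, 2 with rapamycin and 1 in control. The share of all 1247 miRNAs called this way was 28.5%, 26.1%, 27.9%, 29.4%, 28.5% and 26.1%. miR-192-5p accounted for 6 of these 10 calls, miR-204-5p for 3 (high glucose, triple stimuli and rapamycin) and miR-194-5p for 1 (hypoxia). The same flag was carried by 43.8%, 42.6%, 46.8%, 46.4%, 48.3% and 45.2% of the negative-control spots. On the 19-base probe of miR-192-5p it was carried by 16 of 19 spots under high glucose, 17 of 17 under palmitate, 14 of 20 under hypoxia, 14 of 18 under triple stimuli, 18 of 19 with rapamycin and 11 of 18 in control. Those shares were above that of the negative-control spots on each array.

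Related strands and lists of miRNAs place these values on the same arrays. The other arms of the 9 hairpins, 10 mature miRNAs on the array, were detected on 0 arrays, with means from -4.00 to 2.98. That held for 1049 of all 1247 miRNAs, so it is not particular to these arms. miR-211-5p, the seed-mate of miR-204-5p, was also undetected on all 6 arrays, with means from 0.854 to 6.91. The other arm of that hairpin, miR-211-3p, was detected on all 6 arrays at 209 under high glucose, 84.9 under palmitate, 78.9 under hypoxia, 135 under triple stimuli, 176 with rapamycin and 69.2 in control. These 6 values have no replicate, and both arms of the hairpin thus differed in detection on every array.

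Of 6 other miRNAs linked to epithelia, 3 were detected on all 6 arrays: miR-182-5p (208 to 228 intensity units), miR-183-5p (63.8 to 82.7) and miR-96-5p (81.8 to 108), which come from a cluster known from sensory epithelia. miR-203-3p of skin, miR-205-5p of stratified epithelia and miR-375-3p of endocrine cells were undetected, with means from -3.15 to 0.673. Of 8 other miRNAs linked to kidney, 7 were detected on all 6 arrays: miR-30a-5p, miR-30b-5p, miR-30c-5p, miR-30d-5p and miR-30e-5p, the miR-30 family of tubules and podocytes, and miR-10a-5p (463 to 583) and miR-10b-5p (195 to 232) of the Hox clusters. miR-146b-5p was undetected, at 0.752 to 4.25. The cells thus gave signal for part of the kidney and epithelial lists on the same arrays on which the 9 miRNAs were undetected. Of all 1247 miRNAs, 154 were detected on all 6 arrays. Because the 9 miRNAs and the lists were chosen with earlier results of these data known, their contrast is a description and not a test.

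**Figure D4:**
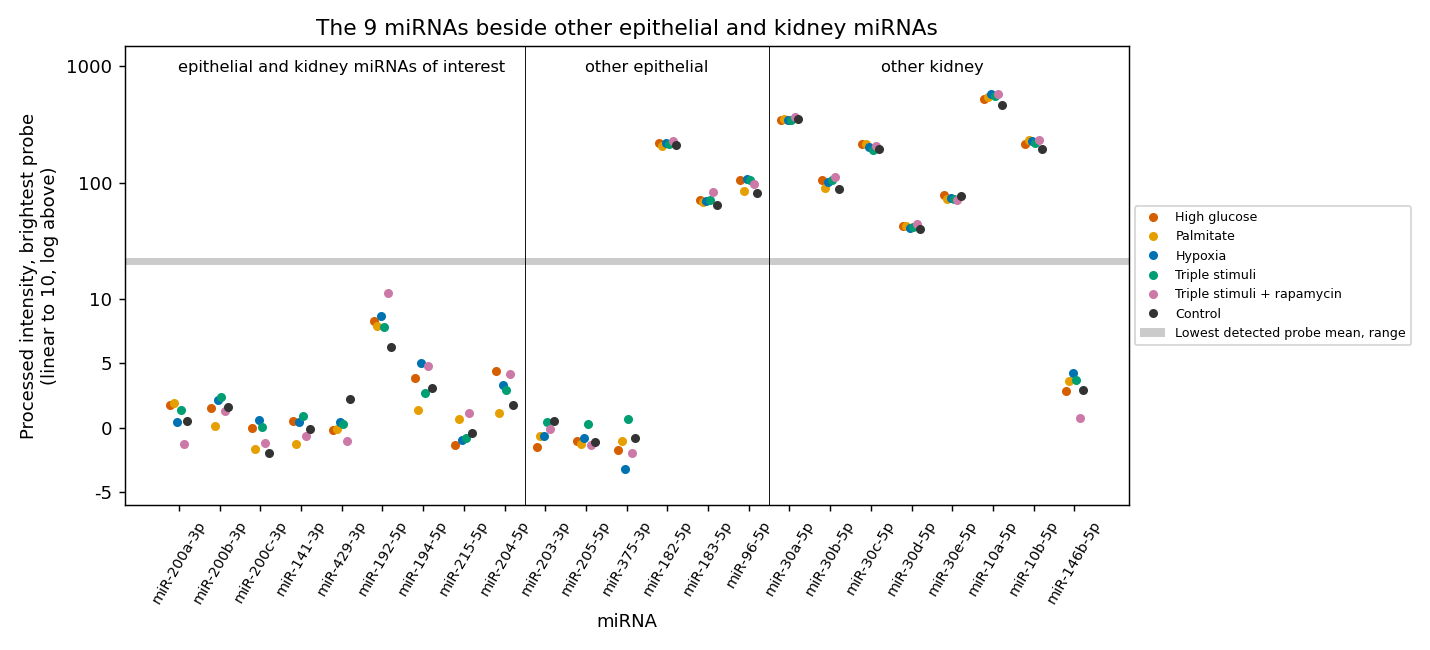
Processed intensity of the brightest probe on the 6 arrays for the 9 miRNAs, 6 other epithelial and 8 other kidney miRNAs, on an axis linear to 10 and logarithmic above. The grey band spans the lowest detected probe means of the 6 arrays, 19.5 to 22.2. The 9 miRNAs lie below it, while 3 of the 6 epithelial and 7 of the 8 kidney miRNAs lie above it on every array.

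Markers of other cell types were counted on the same arrays, beside the 198 of all 1247 miRNAs detected on at least 1. Of 6 miRNAs of fibroblasts and smooth muscle, 0 were detected on any array, with means from -2.25 to 2.40. Of 6 names of blood cell miRNAs, 4 were matched on the array and 0 of those were detected, the highest being miR-223-3p, with means from 11.7 to 14.2. The other 2 blood names, forms of miR-142a, and the 2 endothelial names, forms of miR-126a, were not matched by exact name. They were not looked for under older names and were not analysed here. Lists this short give little beside that share of all miRNAs.

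The limit can also be set beside miRNAs just above it. The 3 dimmest miRNAs detected on all 6 arrays had median intensities of 24.7 (miR-706), 25.9 (miR-99b-3p) and 27.8 (miR-872-5p). Of 1496 other probes within the range of length and GC content (38.9% to 56.2%) of the 9 miRNAs' probes, 10.4% were detected on at least 1 array, beside 11.8% of all 3087 other probes. The part of probe make-up in the results was not tested.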

How the data were processed

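Per the file headers, the authors' arrays were read with Agilent Feature Extraction 10.7.3.1, whose output holds background-subtracted signals and a flag for outlier spots. The deposited intensity values per spot are linear and not normalised between arrays. The authors' table has 1 linear signal for each miRNA and sample, with a scaling that no source used here gives. Each condition came from a sample's title and has 1 array, so the number of arrays limits the precision and no test was made. The planned limma comparison of 3 arrays at 1% oxygen with 3 at 20% was not run, and neither was likeness of pattern, since both required detection. Every value was read against the same array's negative controls and limit. Outlier-flagged spots were left out, and the probe with the higher mean over the 6 arrays stands for a miRNA. Analysis used Python 3.11.15 with pandas 2.3.3. The alternative normexp correction used R 4.3.3 and limma 3.58.1. All 9 miRNAs are named in each result, with lists of related miRNAs, and both were chosen with earlier results of these data known. Mature sequences were matched by name to RefSeq, GRCm38.p6.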

Additional observations from a re-analysis of the deposited data

How the results depend on the processing

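Of the 54 pairs of a miRNA and an array, 0 were detected under every rule tried, except 10 with the positive and significant flag. The median of the 54 means against the negative controls was -0.679 SDs of those spots. It was -0.544 with outlier spots kept, -0.788 with the mean of all probes and -0.51 with spot mean minus local background. Against the brightest probes of the miRNAs never detected it was -0.0529, a value in SDs of those probes' means around their own mean. The median share of the detection limit was 5.66%. It became 2.68% with the mean of all probes and 11.9% with the software's total signal. After normexp it was 77.5%, with an offset of 50 added to the intensities on both sides of the share. The highest share of miR-192-5p, 57.3%, became 93.1% after normexp and 45.6% against the 5th percentile of detected probes. It became 51.5% against the lowest probe detected on all 6 arrays, 52.9% with the median of the spots and 48.9% with the mean of all probes. With total signals the share of miR-192-5p was 103.8% to 231.9% of the lowest total of a called miRNA, past it on all 6 arrays. The software calls by single probes and not by that total. The single-spot limit (median share 5.09%) was chosen after seeing the data. In all settings miR-192-5p was the highest of the 9 on 6 of 6 arrays. The order of miR-194-5p and miR-204-5p turned with the median of the spots. No paired analysis was possible because each condition has 1 array, and no replicate could be left out. Signal over background limits what can be said: a miRNA under the limit is undetected at this sensitivity and may still be present.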
